A study of Mus musculus with 4 samples.

Results

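The genes described here are 10 NF-kB subunits and feedback regulators, taken by symbol from the 55487 annotated mouse genes of a count table. They are the subunit genes Rela, Relb, Nfkb1 and Nfkb2, the inhibitor genes Nfkbia and Nfkbie, the genes of the nuclear IkB proteins Nfkbiz and Bcl3, and the ubiquitin regulators Tnfaip3 and Birc3. All 10 were deep enough to test. RNA came from LPC-HRas, a mouse line labelled as liver cancer cells and grown in serum-containing medium without stimulation. One group overexpressed UBXN9, the product of the mouse gene Aspscr1, and the other was the control, with 2 libraries each (UBXN9 1 and 2, control 1 and 2). The labels state neither the vector and promoter of the overexpressed gene nor whether the cells are a pool or a clone, and nothing in them says that the libraries of a group came from separate cultures, so the p-values reflect no more than how these libraries varied, which may be technical.

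NF-kB is a family of dimeric transcription factors that IkB proteins hold in the cytoplasm. When receptors for TNF, IL-1 or microbial products fire, the IKK kinases mark IkB for destruction and RELA-p50 dimers enter the nucleus. In the slower non-canonical route, the kinase NIK drives the processing of the Nfkb2 product, which then acts with RELB. Several members are themselves known NF-kB target genes, so their RNA levels are commonly read as a trace of the pathway's activity, and in the liver the pathway is known for its part in inflammation and in hepatocyte survival.

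Library totals ran from 21814969 to 26292686 estimated counts. Levels are CPM, each count as a share of its library after TMM correction for composition. Aspscr1 had 392 and 380 CPM in UBXN9 1 and 2, against 92.1 and 115 CPM in control 1 and 2, a 3.72-fold rise (edgeR adjusted p = 0.00144). Of 13230 genes tested, 669 (5.06%) were higher and 315 (2.38%) were lower in UBXN9 cells at an adjusted p under 0.05. Of the markers of the labelled tissue, the hepatocyte gene Alb was at 0 in all 4 libraries, and the summed level of 6 hepatocyte markers was 1.59 and 1.66 CPM in UBXN9 libraries and 1.41 and 0.998 CPM in controls. The 7 biliary and progenitor markers summed to 2970 and 3230 CPM in UBXN9 libraries and 2720 and 2440 CPM in controls, mostly Spp1. Of them 0 rose and 2 fell, Krt19 (0.31-fold, edgeR adjusted p = 0.0294) and Cd24a (0.482-fold, adjusted p = 0.0102). Prom1 was at 0, and Krt7 and Epcam had at most 3 and 4 counts in a library. The 6 stellate and fibroblast markers summed to 252 and 298 CPM in UBXN9 libraries and 224 and 201 CPM in controls, with Pdgfrb the highest. The 5 endothelial markers summed to 4.38 and 3.92 CPM in UBXN9 libraries and 3.05 and 2.0 CPM in controls. Cd3e, Cd2, Cd8a and Ncr1 were at 0, and the 6 T and NK cell markers summed to at most 0.0995 CPM in any library. The 7 myeloid markers summed to 12.3 and 9.99 CPM in UBXN9 libraries, against 6.68 and 6.81 CPM in controls. Lyz2 was the called myeloid marker, and Ptprc had at most 3 counts in a library. The part of these cells in the results was not tested.

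Of the 10 NF-kB genes, 1 rose and 0 fell. Relb rose 1.59-fold, while the other 9 did not pass the test, and their fold changes lay between 0.995 for Nfkbia and 1.37 for Tnfaip3. That is 1 of 10, beside 5.06% of all tested genes called higher, and 0 of 10 beside 2.38% called lower. Relb and Tnfaip3 were the members with an unadjusted p under 0.05. In 9 of 10 members both UBXN9 libraries lay above both controls, as they did for 25.0% of all genes tested. The gap was narrow for Nfkbiz (73.6 CPM in UBXN9 2 against 73.0 CPM in control 2). It was also narrow for Birc3 (29.9 CPM in UBXN9 1 against 28.5 CPM in control 1). In 0 of 10 members both UBXN9 libraries lay below both controls, against 25.6% of all genes. The median log2 fold change of the 10 was 0.30 and that of all genes -0.0056. The 95% interval of the 9 members that did not pass reached at most 1.81-fold up and 0.779-fold down. Changes of 2-fold in either direction were thus outside the interval of each of these 9.

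**Figure D1:**
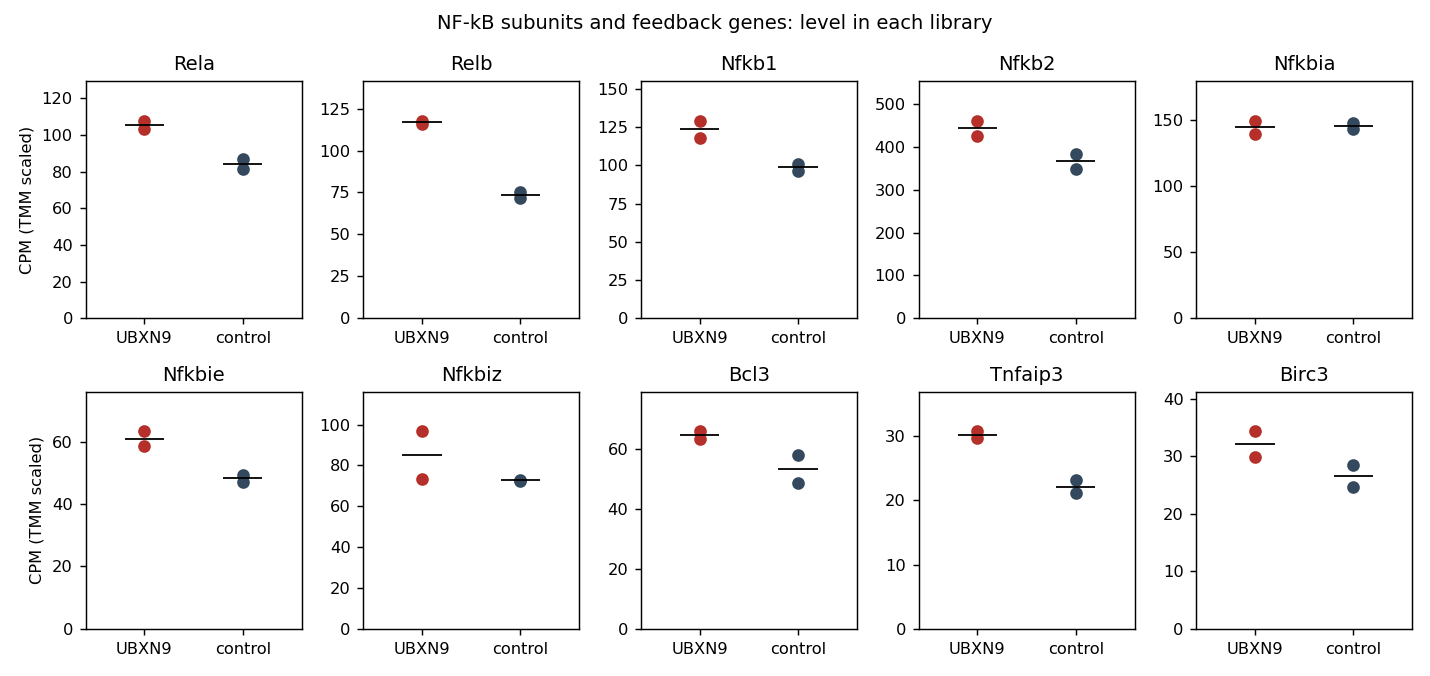
Level of each NF-kB gene in CPM (vertical axis from 0) in each UBXN9 (red) and control (dark) library, with the mean of each group as a line. Relb shows the largest ratio between groups (1.59-fold), and Nfkbia has levels that overlap, from 139 to 149 CPM in UBXN9 cells and from 143 to 147 CPM in controls.

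Relb encodes the RELB subunit of the non-canonical route (ENSMUSG00000002983, chromosome 7, 19606217 to 19629438, GRCm38). Its level was 116 CPM in UBXN9 1 and 118 CPM in UBXN9 2, against 71.7 CPM in control 1 and 75.0 CPM in control 2. The libraries within each group differed by far less than the groups did. On the log2 scale the rise was 0.67, its SE 0.15, with a 95% interval of 0.32 to 1.02 (edgeR quasi-likelihood adjusted p = 0.0407). The change stayed between 0.58 and 0.70 in all 12 other settings, but the call did not. The adjusted p of Relb was 0.44 without control 1, 0.363 without control 2, 0.0656 with library size as the only scaling and 0.171 with the replicate number as a block.

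**Figure D2:**
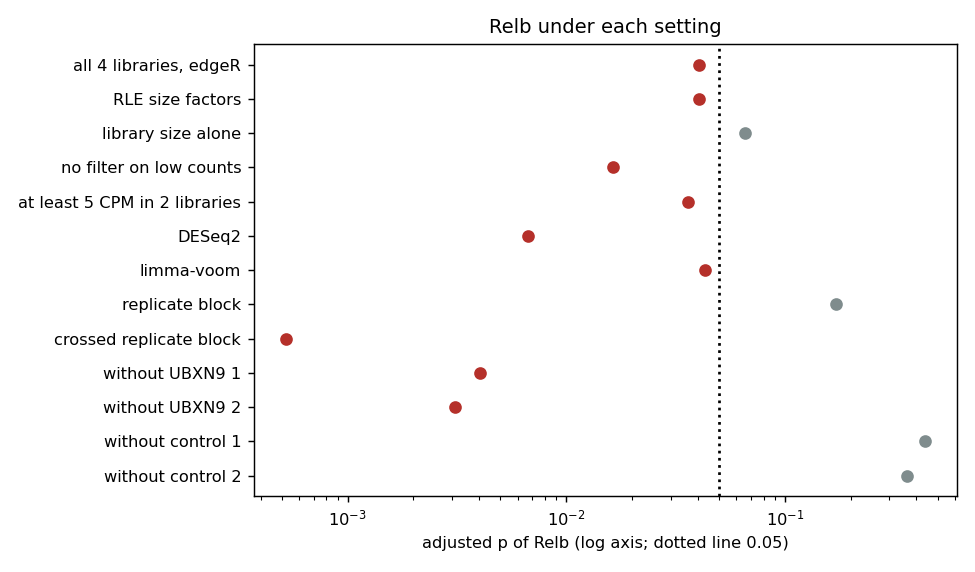
Adjusted p of Relb (horizontal log axis) under the reported fit and each alternative, red where it is under 0.05 and grey where it is not. The call was lost without either control library, with library size alone and with the replicate block.

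Rela encodes the main transactivating subunit of the canonical dimer (chromosome 19, 5637483 to 5648130). It stood at 103 and 108 CPM in UBXN9 libraries and at 81.4 and 86.7 CPM in controls. Both UBXN9 values lay above both controls, yet the log2 fold change of 0.33 (95% interval -0.02 to 0.68) did not pass (edgeR adjusted p = 0.26). Nfkb1 encodes p105, the precursor of p50. It had 129 and 118 CPM in UBXN9 libraries and 101 and 96.3 CPM in controls (log2 fold change 0.32, edgeR adjusted p = 0.276). Nfkb2 encodes p100, which serves as an inhibitor until it is processed to p52, and it had the most counts of the 10. Its level was 462 and 427 CPM in UBXN9 libraries and 349 and 384 CPM in controls, a difference of 0.28 on the log2 scale (edgeR adjusted p = 0.402). Nfkb2 overlaps Psd and AC114539.1 on the other strand, which had 159 to 332 counts a library, and the kit does not mark strand, so reads of these genes cannot be told apart where they overlap.

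Nfkbia encodes IkB-alpha, the inhibitor that NF-kB induces as its fastest known negative feedback (chromosome 12, 55489410 to 55492647). It had 149 and 140 CPM in UBXN9 libraries, against 143 and 147 CPM in controls. The groups overlapped, the log2 fold change was -0.0076 and its 95% interval ran from -0.36 to 0.34 (edgeR adjusted p = 0.986). It was 0.0415 without UBXN9 2 and 0.0136 without control 2, so no direction can be given. Nfkbie encodes IkB-epsilon, a slower feedback inhibitor. Its level was 63.3 and 58.6 CPM in UBXN9 libraries and 47.2 and 49.3 CPM in controls. These values did not overlap, and the log2 fold change of 0.34 did not pass (95% interval -0.03 to 0.71, edgeR adjusted p = 0.271).

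Nfkbiz and Bcl3 encode IkB-like proteins that act in the nucleus as cofactors of p50 and p52 at selected genes. Nfkbiz had 96.7 CPM in UBXN9 1 and 73.6 CPM in UBXN9 2, against 72.4 and 73.0 CPM in controls. UBXN9 2 lay close to the controls, so the log2 fold change of 0.23 rested on UBXN9 1: it was 0.02 without that library and 0.41 without UBXN9 2. Its adjusted p was 0.541 by edgeR. Bcl3 had 66.1 and 63.6 CPM in UBXN9 libraries and 48.7 and 58.1 CPM in controls. Its log2 fold change was 0.28 with all libraries (edgeR adjusted p = 0.401) and 0.15 without control 1.

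Tnfaip3 encodes A20, a ubiquitin-editing enzyme that ends signalling from the TNF and Toll-like receptors (chromosome 10, 19000910 to 19015657). It had 29.7 and 30.8 CPM in UBXN9 libraries, against 23.1 and 21.1 CPM in controls. It had the second-largest difference of the 10, with a log2 fold change of 0.45 and a 95% interval of 0.04 to 0.86. That interval is not adjusted for the number of genes, and the adjusted p was 0.185 by edgeR and 0.0334 with a crossed replicate block chosen after seeing the data. Birc3 encodes cIAP2, a ubiquitin ligase of the TNF receptor complex. Its level was 29.9 and 34.4 CPM in UBXN9 libraries and 28.5 and 24.7 CPM in controls. The difference of 0.27 on the log2 scale was only somewhat larger than the gap between the libraries of either group (edgeR adjusted p = 0.454). It was 0.17 without UBXN9 2 and 0.17 without control 2.

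**Figure D3:**
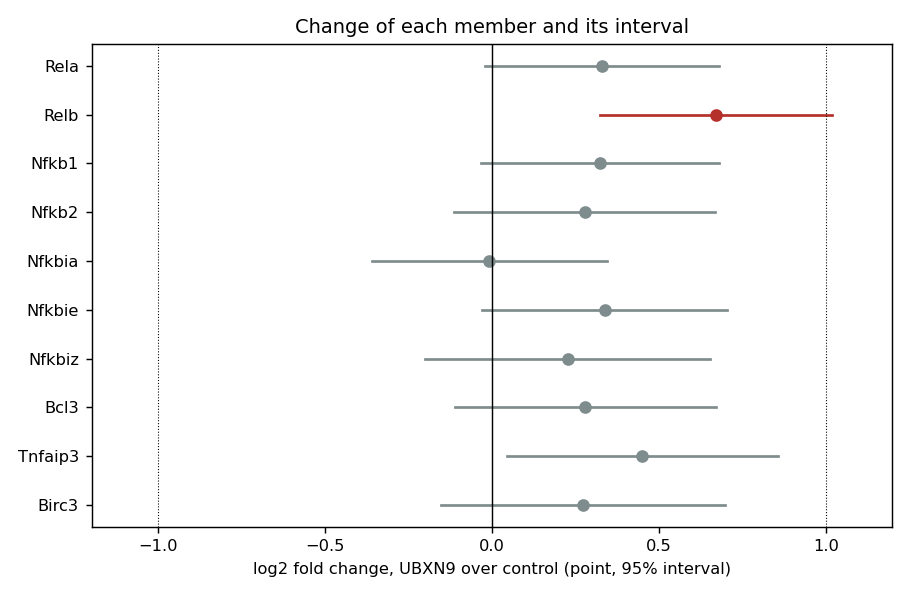
Log2 fold change of each NF-kB gene, UBXN9 over control, as a point with its 95% interval from the edgeR fit, red where the adjusted p is under 0.05. Dotted lines mark a 2-fold change; the interval of Relb reaches 1.02 and the other 9 end below 1.

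Dividing CPM by the length of all annotated exons put the genes on a scale on which they can be set side by side. Nfkb2 and Nfkbia were the most abundant, with 96.9 ± 5.43 and 89.7 ± 4.38 CPM per kb in UBXN9 cells and 79.9 ± 5.44 and 90.2 ± 1.89 CPM per kb in controls (SD, n = 2). Nfkb2 ranked above Nfkbia in UBXN9 cells and below it in controls, with no overlap between the libraries of either group. The gap in UBXN9 cells was narrow, with 93.1 CPM per kb for Nfkb2 in UBXN9 2 against 92.8 for Nfkbia in UBXN9 1. Rela followed with 34.4 ± 1.03 CPM per kb in UBXN9 cells and 27.4 ± 1.23 CPM per kb in controls. Relb, at 30.1 ± 0.36 CPM per kb in UBXN9 cells and 18.9 ± 0.593 CPM per kb in controls, ranked above Bcl3 in UBXN9 cells and below it in controls. Nfkbie, Nfkbiz and Nfkb1 came next, and Nfkbie and Nfkbiz overlapped in UBXN9 cells. Birc3 and Tnfaip3 were lowest, Tnfaip3 at 4.18 ± 0.107 CPM per kb in UBXN9 cells and 3.06 ± 0.198 CPM per kb in controls. This order depends on the length used. Measured by its longest coding transcript, Nfkb1 stood at 30.0 ± 1.95 CPM per kb in UBXN9 cells and 24.0 ± 0.831 CPM per kb in controls, against 10.2 ± 0.667 and 8.19 ± 0.284 CPM per kb by all exons. On that length Relb ranked above both Rela and Bcl3 in both groups. Nfkb2 then ranked above Nfkbia in both groups, and their libraries overlapped in controls.

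**Figure D4:**
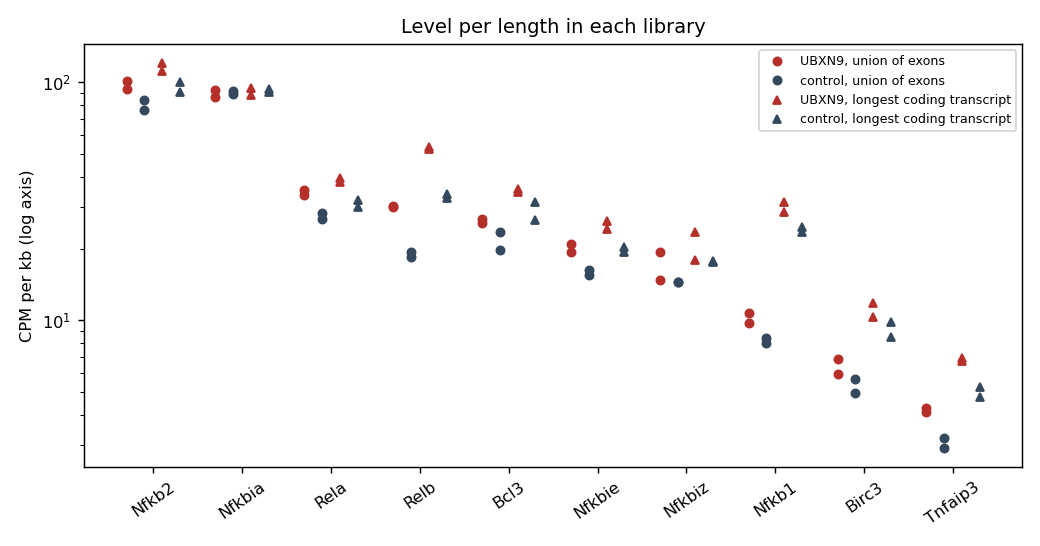
CPM per kb (vertical log axis) of each NF-kB gene in each UBXN9 (red) and control (dark) library, by all annotated exons (circles) and by the longest coding transcript (triangles). Nfkb2 and Nfkbia stand above the others and Tnfaip3 is lowest; Nfkb1 moves most between the lengths.

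The balance of subunits was compared per library on the same scale. The log2 ratio of Relb and Nfkb2 together to Rela and Nfkb1 together was 1.56 and 1.46 in UBXN9 libraries and 1.44 and 1.51 in controls, values that overlap (exact permutation p = 0.667, two-sided). Relb alone over Rela, a ratio chosen after their values were seen, was -0.17 and -0.21 in UBXN9 libraries and -0.52 and -0.55 in controls. These groups did not overlap, and the difference was 0.34 (exact permutation p = 0.33, the smallest that 2 against 2 libraries allow). The log2 ratio of the inhibitors Nfkbia and Nfkbie to the 4 subunits was -0.62 and -0.67 in UBXN9 libraries and -0.31 and -0.37 in controls. The ratio was lower in both UBXN9 libraries than in either control, by 0.30 on average, with an exact permutation p of 0.33. In controls Nfkbia had 90.2 and Nfkbie 15.8 CPM per kb, so Nfkbia made up most of the inhibitor sum. Their log2 fold changes were -0.0076 and 0.34, and neither passed the test.

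RefSeq promoter windows (GRCm38.p6, 250 bases before to 50 after each annotated start) matched 7 of the 10 genes. The promoters of Nfkb1, Nfkbiz and Relb, the gene that rose, were not analysed here, so matches were not compared with change. The NF-kB consensus, read on both strands, was present for 5 of the 7: Nfkb2, Nfkbia, Nfkbie, Bcl3 and Tnfaip3. Over all 27025 genes with a window, 9.55% held it. The core of the interferon-stimulated response element, GAAA followed by any 2 bases and GAAA, was in 0 of those 7 and in 3.99% of all genes, and the STAT motif TTCNNNGAA was in 1, Nfkb2, and in 9.55% of all genes. A match describes letters and not binding. Shown are the 250 bases before the start, 5′ to 3′ on the strand of the gene, for the 4 genes with a match there. Capitals mark the bases of each match to the NF-kB consensus.
Nfkb2 (chr19:46304487-46304736, plus strand): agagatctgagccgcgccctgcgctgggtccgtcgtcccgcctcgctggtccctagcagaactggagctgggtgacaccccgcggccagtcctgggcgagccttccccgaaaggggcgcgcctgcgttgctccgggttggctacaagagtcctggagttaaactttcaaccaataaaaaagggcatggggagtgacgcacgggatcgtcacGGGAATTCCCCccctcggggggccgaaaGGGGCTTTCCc
Nfkbia (chr12:55492648-55492897, minus strand): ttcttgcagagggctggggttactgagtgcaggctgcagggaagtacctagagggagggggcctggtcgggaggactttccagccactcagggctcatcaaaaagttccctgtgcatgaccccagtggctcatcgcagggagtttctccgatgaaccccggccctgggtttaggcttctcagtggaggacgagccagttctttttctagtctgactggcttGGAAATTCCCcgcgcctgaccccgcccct
Nfkbie (chr17:45555450-45555699, plus strand): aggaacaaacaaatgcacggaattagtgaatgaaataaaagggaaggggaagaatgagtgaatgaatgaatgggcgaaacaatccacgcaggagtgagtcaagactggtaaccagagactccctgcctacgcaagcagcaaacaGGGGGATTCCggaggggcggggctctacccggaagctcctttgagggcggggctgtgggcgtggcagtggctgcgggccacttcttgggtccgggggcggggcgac
Tnfaip3 (chr10:19015411-19015660, minus strand): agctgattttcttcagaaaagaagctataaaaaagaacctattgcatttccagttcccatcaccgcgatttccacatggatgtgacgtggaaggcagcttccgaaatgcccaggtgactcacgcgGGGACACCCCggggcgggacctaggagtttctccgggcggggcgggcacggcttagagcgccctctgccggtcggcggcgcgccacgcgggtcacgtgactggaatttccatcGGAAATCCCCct
In Nfkbia the match GGAAATTCCC ends 19 bases before the start. In Tnfaip3, GGAAATCCCC ends 2 bases before the start and GGGACACCCC 115 bases before it. In Nfkb2, matches at GGGAATTCCC and GGAATTCCCC overlap each other, and GGGGCTTTCC ends 1 base before the start. Nfkb2 has 2 further annotated starts, each with a match, while a further annotated start of Tnfaip3 has no match. Nfkbie holds GGGGGATTCC 96 bases before the start. The 4 genes with these matches had log2 fold changes of 0.28 for Nfkb2, -0.0076 for Nfkbia, 0.34 for Nfkbie and 0.45 for Tnfaip3. Bcl3, with no match in the 250 bases before the start, had 0.28, and Rela and Birc3, with no match, had 0.33 and 0.27. None of these genes passed the test, but Relb, the called member, had no window, so this says nothing about the matches.

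Around these 10 genes, 100 further genes of the pathway were listed by role, and 89 were deep enough to test. Of these, 25 rose and 2 fell, beside 5.06% and 2.38% of all genes, and their median on the log2 scale was 0.34. All these lists were chosen with earlier results of these data known, so their shares are descriptions. The number called higher fell with either control library left out and rose with either UBXN9 library left out, as it did over all genes. Counts differed by role, and the target genes had the most calls.

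Among other subunits and inhibitors, 4 of 16 tested genes (25.0%, beside 5.06% of all genes) rose and 0 fell (median log2 fold change 0.40). Tnip1 and Tnip3 encode ABIN proteins that bind A20. Tnip3 had 3.29 and 4.71 CPM in UBXN9 libraries and 0.229 and 0.318 CPM in controls, a 14.5-fold rise (edgeR adjusted p = 0.00343). Tnip1 had 158 and 132 CPM in UBXN9 libraries and 70.2 and 80.1 CPM in controls, a 1.93-fold rise (edgeR adjusted p = 0.02; 0.169 without control 1 and 0.0843 without control 2). N4bp1, an inhibitor of NF-kB signalling, rose 2.26-fold (adjusted p = 0.0202, and 0.112 without control 2). Rnf11, a partner of A20, rose 1.70-fold with an adjusted p of 0.0488, which was 0.151 without control 1 and 0.512 without control 2. It was also lost with library size alone (0.0992), a filter of 5 CPM in 2 libraries (0.0513), limma-voom (0.0529) and the replicate block (0.109), and N4bp1 was lost with library size alone (adjusted p = 0.073). Rel, the remaining subunit, had 3.48 and 6.33 CPM in UBXN9 libraries and 4.08 and 2.99 CPM in controls, which overlap (edgeR adjusted p = 0.531); Rel was named after its values were seen. Fewer genes of this list were called higher without either control library and more without either UBXN9 library, as over all genes.

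Of 25 kinases, adaptors and ubiquitin ligases, 2 rose (8.0%, near the 5.06% of all genes) and 0 fell (median 0.16). Myd88, the adaptor of Toll-like and IL-1 receptors, had 122 and 103 CPM in UBXN9 libraries and 41.5 and 48.9 CPM in controls, a 2.48-fold rise (edgeR adjusted p = 0.00606). Rnf31, the catalytic subunit of the linear ubiquitin ligase, rose 1.77-fold (adjusted p = 0.0214, and 0.17 and 0.272 without control 1 and control 2, 0.0576 with library size alone and 0.0585 with the replicate block). Here too, leaving out a control library gave fewer genes called higher and leaving out a UBXN9 library gave more, as over all genes.

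Of 11 receptors tested, 4 rose (36.4%, beside 5.06% of all genes) and 1 fell (median 0.56). Tlr3, the receptor of double-stranded RNA, had 36.7 and 63.3 CPM in UBXN9 libraries and 3.66 and 2.36 CPM in controls, a 16.5-fold rise (edgeR adjusted p = 0.00104). Tlr2 rose 3.82-fold, to 98.7 and 97.4 CPM in UBXN9 libraries, against 27.5 and 23.9 CPM in controls. Tlr4 and Tnfrsf9 rose 1.99-fold and 1.85-fold, with adjusted p values of 0.0488 and 0.041 that were 0.167 and 0.235 without control 1 and 0.454 and 0.168 without control 2. Il1r1, the IL-1 receptor, fell to 27.3 and 33.0 CPM in UBXN9 libraries, against 63.2 and 53.5 CPM in controls (adjusted p = 0.0253, and 0.161 and 0.0632 without control 1 and control 2). With library size alone the adjusted p was 0.101 for Tlr4, 0.0559 for Tnfrsf9 and 0.0531 for Il1r1, and for Tlr4 it was 0.0544 with the filter of 5 CPM and 0.111 with the replicate block. Leaving out either control library left fewer receptors called higher or lower, as it did over all genes.

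Of 12 ligands, 6 were deep enough to test, of which 1 rose (16.7%, beside 5.06% of all genes) and 0 fell, and the median was -0.14. Tnf had 67 and 69 counts in UBXN9 libraries and 21 and 18 counts in controls, a 3.64-fold rise (edgeR adjusted p = 0.0282; 0.112 without control 1 and 0.146 without control 2). Ltb, which signals to the non-canonical route, had 20 and 22 counts in UBXN9 libraries and 51 and 60 counts in controls, and did not pass (log2 fold change -1.35, edgeR adjusted p = 0.0962; 0.0326 without UBXN9 1).

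Among target genes 14 of the 31 tested rose and 1 fell. The share that rose was 45.2%, beside 5.06% of all genes, and the median on the log2 scale was 0.73. This list was chosen with earlier results of these data known, so the share describes the list and enrichment was not tested. Vcam1, an adhesion receptor, had 245 and 306 CPM in UBXN9 libraries and 38.7 and 30.4 CPM in controls, a 7.97-fold rise (edgeR adjusted p = 0.000455). Saa3, an acute-phase gene, rose 6.25-fold, to 209 and 125 CPM in UBXN9 libraries, against 25.9 and 27.5 CPM in controls. Irf1, a transcription factor that interferon also induces, had 463 and 381 CPM in UBXN9 libraries and 115 and 116 CPM in controls, a 3.67-fold rise. Among chemokines, Ccl20 rose 13.7-fold from 2 and 3 control counts, Cxcl2 3.85-fold, Cxcl5 3.58-fold and Cxcl1 1.65-fold. Nos2, Mmp3 and Icam1 rose 3.18-fold, 3.65-fold and 5.34-fold, and C3, Lif, Csf1 and Lcn2 rose between 1.72-fold and 1.97-fold. Icam1 was low, with 42 and 68 counts in UBXN9 libraries and 13 and 8 counts in controls. Plau, a urokinase gene, fell to 2.59 and 2.90 CPM in UBXN9 libraries, against 8.01 and 8.39 CPM in controls (edgeR adjusted p = 0.0135). Without control 2 there were 8 higher and 0 lower: the adjusted p was then 0.332 for Cxcl1, 0.144 for Lif, 0.34 for Csf1, 0.117 for Icam1, 0.199 for Lcn2, 0.168 for C3 and 0.0646 for Plau. Without control 1 it was 0.418 for Cxcl1, 0.297 for Lif, 0.112 for Csf1, 0.407 for Lcn2 and 0.0532 for C3. With the replicate block it was 0.164 for Cxcl1, 0.0579 for Lif, 0.0581 for Csf1 and 0.101 for Lcn2, and with library size alone 0.0731 for Csf1. Several of these genes also respond to interferon, and the interferon-stimulated genes Isg15 and Cxcl10 rose 3.69-fold and 9.40-fold in the same libraries; the part of each pathway was not tested.

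**Figure D5:**
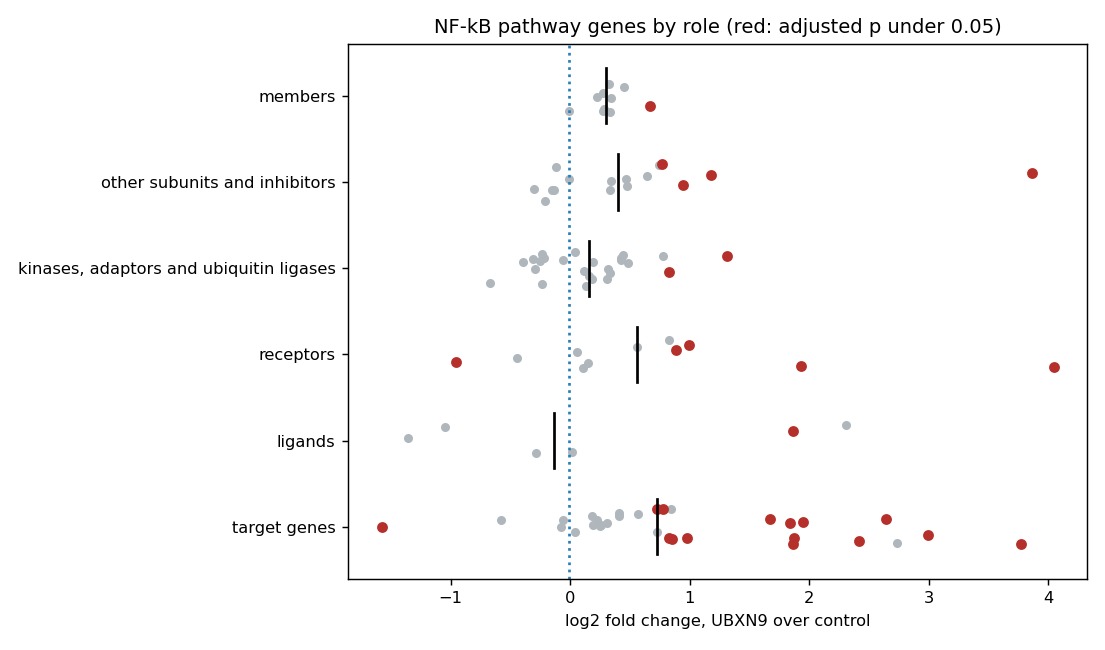
Log2 fold change, UBXN9 over control, of each tested gene by role; each point is a gene, red where the adjusted p is under 0.05, black lines are list medians and the dotted line is the median of all genes tested (-0.0056). The 10 NF-kB genes lie between -0.0076 and 0.67, while target genes reach 3.77.

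The genes whose pattern over the 4 libraries was nearest to that of Relb were Vac14, Jun and Gpt2. Likeness was the root mean square difference of log2 CPM after centring each gene, and it was 0.0215, 0.025 and 0.0252 for these 3. Vac14 had 162 and 161 CPM in UBXN9 libraries and 101 and 107 CPM in controls.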

How the data were processed

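RNA from 4 libraries, 2 of UBXN9-overexpressing and 2 of control LPC-HRas cells, was made with a TruSeq RNA v2 kit and sequenced on a HiSeq instrument, per the labels. The authors deposited estimated counts per gene, not scaled; the submitters' processing notes name HISAT2 2.1.0, HTSeq and GRCm38.p6, and settings and strand handling are not given in the sources used here. Of 55728 rows, 9020 held a fraction, including 4 of the 10 members, so the program that made the counts is not certain. Values were rounded. The 241 rows outside the annotation took at most 0.535% of a library and were left out. GENCODE M21 (GRCm38) gave symbols for 55227 of 55487 IDs, positions and exon lengths.

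The comparison used edgeR 4.0.16 and R 4.3.3 (TMM factors, filterByExpr, quasi-likelihood F test, two-sided) over 13230 genes with Benjamini-Hochberg adjustment; a change is an adjusted p under 0.05. SEs and 95% intervals come from that fit. Member counts ran from 465 to 11318 a library, a counting error of at most 4.64% of the value; errors of counting alone leave out the spread between libraries. The procedure was tested on simulated data with added changes larger than those of the members. That test did not address whether changes of the members' size could be called. Alternatives were other scalings and filters, DESeq2 1.42.0, limma-voom (limma 3.58.1), a replicate block and leaving out each library; where 1 library was left in a group, its spread was taken from the other group. Figures used matplotlib 3.10.9.

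The members and lists were chosen with earlier results of these data known. Named genes were the 10 members, Aspscr1, Isg15 and Cxcl10, every called gene of the other lists (up to 2 with the smallest p where fewer than 2 were called), and the 3 nearest in pattern to the member with the smallest p. In the NF-kB list of ligands this added Ltb. Marker genes were described as lists.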

Additional observations from a re-analysis of the deposited data

How the results depend on the processing

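Of the 10 members, 0 rather than 1 were higher with library size alone and with the replicate block, 2 with the crossed replicate block, and from 0 to 1 with a library left out; 0 were lower in any setting. Genes higher numbered 1144 and genes lower 683 with no filter, 1776 and 1361 with the crossed block, and from 373 to 1611 and from 135 to 1318 with a library left out. Other pathway genes higher numbered 41 with the crossed block and from 12 to 38 with a library left out. Other pathway genes lower numbered 1 with library size alone, 4 with the crossed block and from 0 to 3 with a library left out. Without a control library calls over all genes were fewer and without a UBXN9 library more, and the median absolute log2 difference was 0.313 within the UBXN9 pair and 0.199 within the control pair. The log2 fold change of Nfkbia ran from -0.0555 to 0.0415 with a library left out, and was positive without UBXN9 2 (0.0415) and without control 2 (0.0136). The inhibitor-to-subunit ratio differed by -0.26 without division by length.

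The labels give only a number, not a pairing. Deviations of same-numbered libraries correlated at -0.373 across genes, so a crossed pairing was added after seeing the data. With the replicate block, 640 genes were higher and 292 lower, and 19 other pathway genes were higher. Over the 41 named genes, 433 comparisons with an alternative kept direction and side of the threshold, 48 lost the call, 4 gained it and 2 changed sign. With 2 libraries a group, the differences of 9 members (up to 1.37-fold) did not pass the test adjusted over all genes. In 8 of the 9 both UBXN9 libraries lay above both controls, as they did for 25.0% of all genes tested.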

Other observations

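In the ligand list, Il18 had 11 and 11 counts in UBXN9 1 and 2 and 0 in both controls, and Tnfsf13b, which encodes BAFF, a ligand that feeds the non-canonical route, had 10 and 6 counts in UBXN9 libraries and 0 and 1 in controls. Both were below the depth needed for a test. Nfkbid, a further nuclear IkB gene, had 0 counts in all 4 libraries. Il6, a classic NF-kB target, had 3.19 and 3.02 CPM in UBXN9 libraries and 0.801 and 0.0907 CPM (21 and 2 counts) in controls, and its adjusted p was 0.0669 by edgeR. Cyld and Zc3h12a, a deubiquitinase and an RNase that restrain the pathway, had log2 fold changes of 0.74 and 0.64 and lay just outside the threshold (edgeR adjusted p = 0.0528 and 0.0554). These genes were chosen after their values were seen.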
